A study of Mus musculus with 22 samples.

Results

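Ighj3 and Ighj4 are the third and the fourth functional joining (J) segments of the mouse immunoglobulin heavy chain locus. All sequences of the 22 kidney B cell libraries whose first J name was IGHJ3 or IGHJ4 were taken, whatever the allele. They were 6523 of 17178 sequences (37.97%), with 2765 (16.1%) for Ighj3 and 3758 (21.9%) for Ighj4. A clonotype was defined as a library's sequences with the same V segment, J segment and nucleotides of the third complementarity-determining region (CDR3). By that count Ighj3 had 1293 (19.1%) and Ighj4 1662 (24.6%) of 6754 clonotypes. The other sequences carried Ighj1 (5074 sequences) or Ighj2 (5581 sequences).

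The mice were WT C57BL/6 females of 8 to 10 weeks whose urinary bladders had received 2 inoculations of uropathogenic Escherichia coli (UPEC, 5 mice) or of PBS (6 control mice). At day 56 a CD45 antibody injected before death separated kidney B cells inside vessels (intravascular, CD45IV+) from those in the tissue (extravascular, CD45IV-). Both compartments of each mouse were sorted and their heavy chain RNA was sequenced, so that every mouse gave 1 library per compartment. A library held 750 to 2134 sequences in extravascular PBS, 344 to 611 in intravascular PBS, 244 to 1102 in extravascular UPEC and 347 to 938 in intravascular UPEC samples. A sequence is a distinct read consensus seen in at least 2 reads. A share of sequences thus counts distinct sequences, and those of a clonotype differ outside CDR3. More cells, more RNA per cell, mutation and errors of amplification or reading can each add sequences, and these cannot be told apart. Confidence intervals of single libraries cover counting error only.

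A heavy chain gene is assembled in each developing B cell by joining a D segment to a J segment and then a V segment to the DJ unit. Exonucleases trim the ends, opened hairpins leave palindromic P nucleotides, and terminal transferase adds non-templated N nucleotides at both joints. The joint encodes CDR3, the loop at the centre of the antigen-binding site, and the J segment supplies the end of that loop and the fourth framework region (FR4). B-1 cells, of which many are made before and around birth, are known for short or absent N additions and for Ighv11-2 and Ighv12-3 receptors that bind phosphatidylcholine.

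The germline segments are printed because they fix how much of each CDR3 is templated. Both lie on the minus strand of chromosome 12 (GRCm38, GENCODE vM21 annotation as J genes), Ighj3 at chr12:113429085-113429132 and Ighj4 at chr12:113428514-113428567, with 517 bp between them. Capitals mark the bases upstream of the conserved tryptophan codon, which can become part of CDR3, and lower case the tryptophan codon and the rest of FR4.
Ighj3: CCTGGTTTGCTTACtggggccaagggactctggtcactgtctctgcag
Ighj4: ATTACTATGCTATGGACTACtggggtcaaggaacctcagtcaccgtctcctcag
Ighj4 is thus 54 bases long against 48 for Ighj3, and the difference lies in the CDR3 part, which reads YYAMDY at the end of an untrimmed Ighj4 loop and WFAY at that of Ighj3. The FR4 peptides, WGQGTLVTVSA for Ighj3 and WGQGTSVTVSS for Ighj4, served to check the J names. FR4 matched the germline peptide in 2704 of 2765 Ighj3 sequences (97.8%) and in 3632 of 3758 Ighj4 sequences (96.6%), and 0 sequences carried the peptide of another J segment.

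By sequence and by clonotype, Ighj3 made up less of the extravascular than of the intravascular repertoire in all 6 PBS mice, but in 4 of 6 once related CDR3s were counted together (-1.93 percentage points, exact p = 0.4375). Ighj4 did not differ detectably between the compartments of PBS mice. Ighj3 held 1.5% of sequences in the lowest, 6.68% in the median and 25.9% in the highest extravascular PBS library. In the matched intravascular libraries these values were 16.9%, 18.5% and 52.0%. The mean was 9.36% ± 8.66 (SD, n = 6) against 25.1% ± 13.6, a difference of -15.7 percentage points with a lower extravascular value in all 6 mice (two-sided exact signed-rank test: p = 0.03125, the smallest that 6 mice allow, 0.125 adjusted over the 4 J segments). The groups overlapped, because PBS mouse 6 was highest in both compartments. Counted by clonotype the direction held in 6 of 6 mice, with 13.5% ± 6.13 against 21.8% ± 3.39 (difference -8.31 percentage points, exact p = 0.03125, adjusted 0.125). With any of the PBS mice left out, 5 mice cannot give a p below 0.0625.

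In UPEC mice the Ighj3 share did not differ detectably between compartments. The extravascular libraries of UPEC mice 1 to 5 held 18.4%, 46.2%, 11.3%, 14.3% and 15.1% Ighj3 sequences and the intravascular libraries 21.4%, 16.7%, 20.9%, 25.8% and 19.6%. UPEC mouse 2 was the only one with a higher extravascular value, and the mean difference was 0.179 percentage points (p = 0.625 by exact signed-rank test, n = 5). Without that mouse it was -7.15 percentage points (exact p = 0.125). By clonotype the difference was -0.826 percentage points (exact p = 0.625). The mean extravascular minus intravascular values of UPEC and PBS mice, 0.179 and -15.7, lay 15.9 percentage points apart (exact permutation of the treatment labels, p = 0.0238, adjusted over the 4 J segments 0.0952). Without UPEC mouse 2 this gap was 8.54 percentage points (exact p = 0.0714), and without PBS mouse 1, 4 or 6 it was 15.7, 14.7 and 13.8 percentage points (exact p = 0.0556 each). By clonotype the change was 7.48 percentage points (exact p = 0.0779). Over all 11 mice Ighj3 was lower extravascularly in 10, by sequence (-8.48 percentage points, exact signed-rank p = 0.0537) and by clonotype (-4.91, exact p = 0.0322, adjusted 0.107). The latter p was 0.0645 without PBS mouse 1 or 4.

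PBS mouse 6 and UPEC mouse 2 carried most of the high Ighj3 values. In intravascular PBS mouse 6 a single clonotype held 37.3% of all sequences, and without it Ighj3 made up 23.5% instead of 52.0%. In extravascular UPEC mouse 2 a single clonotype held 28.6%, and without it Ighj3 made up 24.7% instead of 46.2%. With the most frequent clonotype of each library left out, the difference in PBS mice was -9.86 instead of -15.7 percentage points and did not pass the test (exact p = 0.0625). It was negative in 5 of 6 mice, and PBS mouse 6 had the higher value extravascularly (27.9% against 23.5%). The change with treatment was 5.52 percentage points (exact p = 0.310).

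The Ighj3 share depended on how related CDR3s were counted. When clonotypes of a library with the same V, J and CDR3 length that were linked by single-nucleotide differences were counted once (CDR3 groups, 5504 in all), Ighj3 made up 18.3% of extravascular and 20.3% of intravascular groups in PBS mice. PBS mice 2 and 6 had a higher extravascular share. Extravascular PBS libraries held 1.72 clonotypes per CDR3 group over all J segments, 2.40 for Ighj1, 1.54 for Ighj4 and 1.24 for Ighj3, against 1.05 over all J segments in intravascular PBS libraries. By CDR3 groups the extravascular Ighj3 share was 21.4% ± 1.29 in UPEC (n = 5) and 18.3% ± 2.45 in PBS mice (n = 6), a difference of 3.02 percentage points (exact Mann-Whitney test, p = 0.0303, adjusted 0.121). The same contrast was 7.29 percentage points by clonotype and 11.7 by sequence (exact p = 0.0519 for both).

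Ighj4 sequences ranged from 9.06% to 38% (median 28.1%) in extravascular and from 14.7% to 30.2% (median 24.9%) in intravascular PBS libraries. The means were 24.8% ± 11.6 and 24.2% ± 5.12 (difference 0.651 percentage points, p = 1 by exact signed-rank test, n = 6). The spread between PBS mice was thus wider in the extravascular compartment, and the extravascular value was higher in 4 of 6 mice (all but PBS mice 2 and 3). In UPEC mice the extravascular clonotype shares of Ighj4 were 16.4%, 19.3%, 18.5%, 24.7% and 27.1% against 24.1%, 27.6%, 23.0%, 26.6% and 28.5% intravascularly. All 5 mice were lower extravascularly, by 4.78 percentage points on average (exact p = 0.0625, the smallest that 5 mice allow, adjusted 0.25), and 4 of 5 were lower by CDR3 groups (-4.16 percentage points, exact p = 0.125). By sequence 4 of 5 were lower (mean difference -4.63 percentage points, exact p = 0.1875), and UPEC mouse 4 was higher, with 22.9% against 16.7%. UPEC and PBS mice did not differ detectably in extravascular Ighj4 sequences (difference -6.00 percentage points, exact Mann-Whitney test, p = 0.429).

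**Figure D1:**
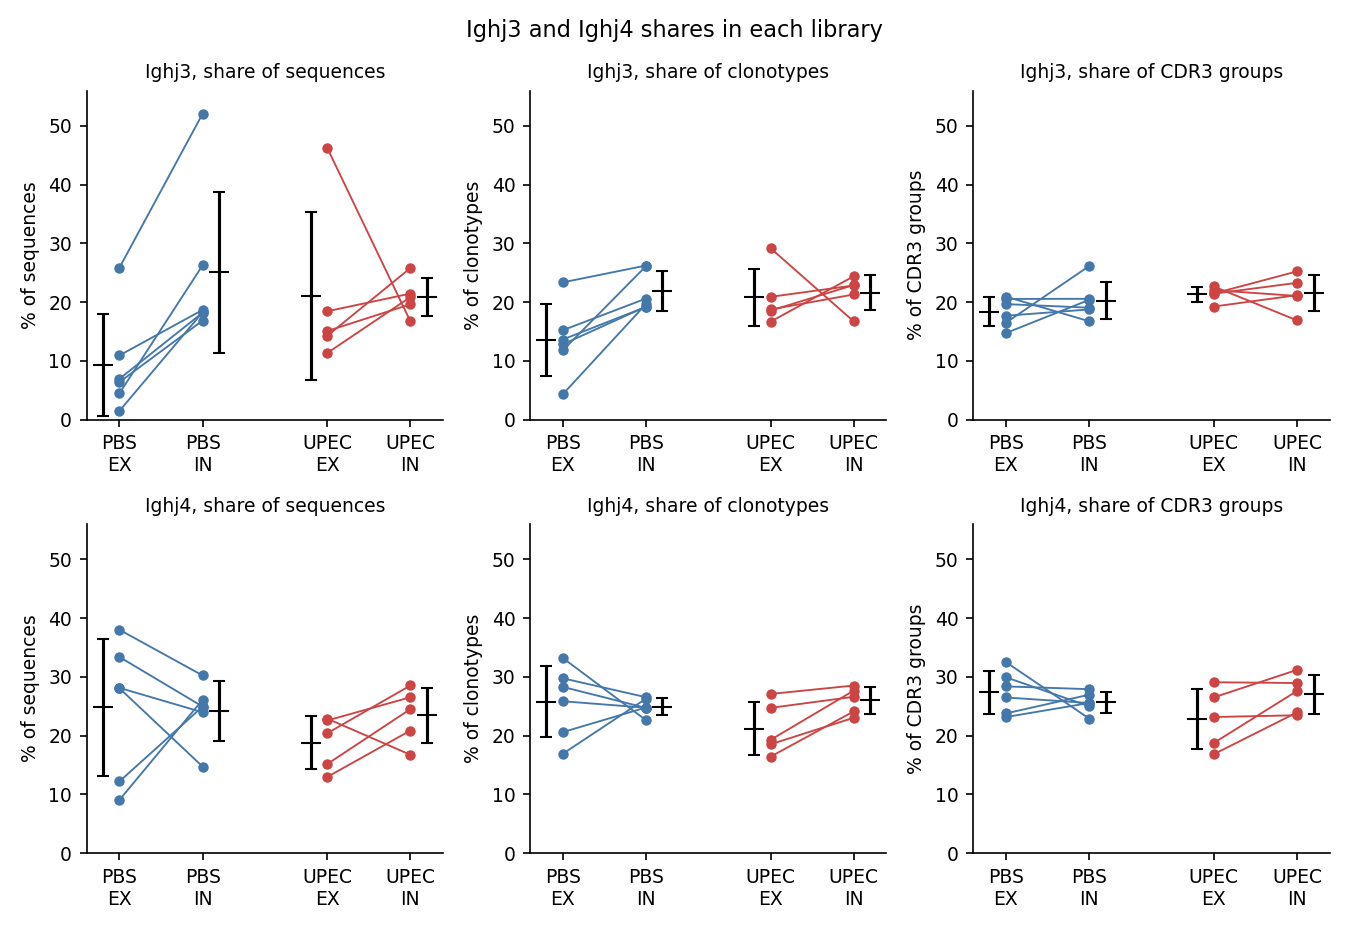
Ighj3 (upper row) and Ighj4 (lower row) as a percentage of sequences, clonotypes and CDR3 groups in each library, with lines joining the extravascular (EX) and intravascular (IN) library of a mouse and black bars for mean ± SD. The PBS lines of Ighj3 rise from EX to IN in 6 of 6 mice by sequence and by clonotype but in 4 of 6 by CDR3 group, and the Ighj4 lines cross.

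The V partners were compared within each mouse, with the clonotypes of both compartments together (1285 for Ighj3 and 1656 for Ighj4 over 11 mice). The share of a V segment among the clonotypes of a J segment was set against its share among those of the other J segments. Of all 96 pairs of 24 V and 4 J segments 29 (30.2%) passed an adjusted p of 0.05 in the exact sign-flip permutation test. Ighj3 and Ighj4 had 6 each of 24, so that both were close to that background. The most frequent partners were Ighv3-1 (226 clonotypes), Ighv3-6 (206) and Ighv3-8 (84) for Ighj3, followed by Ighv12-3 and Ighv1s22 (64 each). For Ighj4 they were Ighv3-8 (261), Ighv3-1 (238), Ighv3-6 (181), Ighv1s22 (150) and Ighv5-17 (85). Ighv3 is a small family of V segments, and it supplied 41.8% of Ighj3 and 45.5% of Ighj4 clonotypes, neither of which differed detectably from the other J segments (adjusted p = 0.710 and 0.478, exact permutation).

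Within the Ighv3 family the members were joined to Ighj3 at unequal rates. Ighv3-8 made up 2.59% to 12.8% (median 5.49%) of a mouse's Ighj3 clonotypes against 10.0% to 23.1% (median 16.7%) of its other clonotypes. It was less frequent with Ighj3 in 11 of 11 mice, with a mean difference of -10.46 percentage points (adjusted p = 0.0134, exact permutation). Ighv3-3 was also less frequent with Ighj3, with 0.404% against 2.18% and a lower value in 11 of 11 mice (adjusted p = 0.0134, exact permutation). Ighv3-6 made up 15.97% ± 4.89 against 10.9% ± 3.13, higher in 9 of 11 mice (adjusted p = 0.0234, exact permutation). Ighv3-1 made up 17.6% ± 7.17 against 11.5% ± 3.06, higher in 10 of 11 mice and highest in PBS mouse 6 at 35.5% (adjusted p = 0.0341, exact permutation). Ighv3-6 and Ighv3-1 were thus over-represented and Ighv3-8 and Ighv3-3 under-represented. By CDR3 groups the differences of Ighv3-8 (-8.14), Ighv3-6 (4.60) and Ighv3-1 (5.27) passed the test, and that of Ighv3-3 (-1.01) had an adjusted p of 0.0569. Ighv3-5, not among the calls by clonotype, was called less frequent by CDR3 groups. It made up 0.703% against 1.94%, lower in 9 of 11 mice (adjusted p = 0.0466, exact permutation).

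Outside that family, Ighv10-1 was more frequent with Ighj3, at 3.09% ± 2.13 against 1.44% ± 1.13 and higher in 9 of 11 mice (adjusted p = 0.0296, exact permutation). By CDR3 groups its adjusted p was 0.0527. Ighv11-2, one of the phosphatidylcholine-binding V segments of B-1 cells, was almost absent from Ighj3, with 2 clonotypes in all. Its share was 0.162% against 2.07% and lower in 11 of 11 mice (adjusted p = 0.0134, exact permutation). Ighv12-3, the other such V segment, made up 5.25% of Ighj3 clonotypes against 8.22%. It ranged from 0 in PBS mouse 3 to 26.7% in UPEC mouse 2, where it was the V segment of the clonotype that stood apart, and its difference did not pass the test. With a mouse left out the Ighv12-3 difference ranged from -5.59 to -1.49 percentage points (lowest adjusted p = 0.0505, exact permutation). Ighv1s22 made up 4.84% against 6.94% and did not pass the test by clonotype. It passed when CDR3 groups were counted (difference -2.81, adjusted p = 0.0337) and without UPEC mouse 1 (-2.51, adjusted p = 0.0399, both exact permutation).

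Ighj4 was joined less to both phosphatidylcholine-binding V segments, as was Ighj2 to their families. Ighv11 made up 0.0413% of Ighj2 clonotypes against 2.52% of the others, lower in 11 of 11 mice. Ighv12 made up 3.88% against 9.58%, lower in 10 of 11 mice (adjusted p = 0.00586 and 0.00959, exact permutation). Ighv11-2 had 2 Ighj4 clonotypes, a share of 0.0947% against 2.28%, lower in 11 of 11 mice (adjusted p = 0.0134, exact permutation). Ighv12-3 made up 2.03% ± 3.30 of Ighj4 clonotypes against 9.58% ± 6.16 and was lower in 10 of 11 mice (adjusted p = 0.0397, exact permutation). The exception was PBS mouse 5, with 11.4% against 2.78%. Ighv15-2 was also less frequent, with 0.949% against 2.69% and lower in 10 of 11 mice (adjusted p = 0.0188, exact permutation). By sequences its difference was -0.985 instead of -1.74 percentage points and was not called (adjusted p = 0.0836, exact permutation). In intravascular libraries alone the Ighv15-2 difference was -2.52, lower in 10 of 11 mice. In extravascular libraries alone it was -0.731, lower in 6 and higher in 2 mice (unadjusted p = 0.203, exact permutation).

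The V segments that were more frequent with Ighj4 came from Ighv1, the largest V family of the mouse. Ighv1s22 made up 9.17% ± 3.04 of Ighj4 clonotypes against 5.65% ± 1.58 (adjusted p = 0.0188), Ighv1-48 4.86% ± 2.05 against 2.26% ± 0.785 (adjusted p = 0.0216) and Ighv1-58 2.86% ± 1.43 against 1.63% ± 0.923 (adjusted p = 0.0341, all by exact permutation). Each was higher in 10 of 11 mice. All 3 also passed by CDR3 groups, as did the 3 under-represented V segments. Ighv3-8, Ighv3-1, Ighv3-6 and Ighv5-17 made up 16.4%, 14.3%, 10.6% and 4.92% of Ighj4 clonotypes against 14.1%, 12.2%, 12.3% and 4.34%, and none passed the test by clonotype. Ighv3-1 reached 32.0% in PBS mouse 1, whose largest clonotype is described further on. Ighv3-6 was called less frequent when CDR3 groups were counted (difference -2.73, adjusted p = 0.0270) and in intravascular libraries alone (-2.96, adjusted p = 0.0469, both exact permutation).

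Several calls lay close to the threshold, and their differences kept their sign with any mouse left out. Without PBS mouse 2, 4, 5 or 6 or UPEC mouse 1, 3 or 5, Ighv3-1 with Ighj3 was no longer called (adjusted p up to 0.0625, differences over all omissions 4.19 to 6.89). The same held for Ighv10-1 with Ighj3 without PBS mouse 2, 3 or 4 or UPEC mouse 3 or 5 (1.44 to 1.87). Ighv12-3 with Ighj4 stayed called only without PBS mouse 5 or 6 (-9.18 to -6.02), and Ighv1-58 with Ighj4 only without PBS mouse 1, 3 or 5 (1.03 to 1.47). When Ighv11-2 and Ighv12-3 sequences were removed from all J segments, 2 V segments remained called for Ighj3 (Ighv3-8 and Ighv3-3) and 2 for Ighj4 (Ighv15-2 and Ighv1s22). The differences of those no longer called were 5.70 for Ighv3-1, 4.68 for Ighv3-6 and 1.61 for Ighv10-1 with Ighj3 (adjusted p = 0.126, 0.0573 and 0.0547), and 2.45 for Ighv1-48 and 1.08 for Ighv1-58 with Ighj4 (adjusted p = 0.0547 and 0.0764, all exact permutation), each with its sign kept. By sequences, Ighv3-8 and Ighv11-2 remained called for Ighj3 and Ighv1-48 and Ighv11-2 for Ighj4. The calls lost by sequences were Ighv3-1, Ighv3-6, Ighv3-3 and Ighv10-1 with Ighj3 (differences 8.64, 3.77, -2.74 and 1.40, adjusted p = 0.125, 0.157, 0.0677 and 0.0564, exact permutation). With Ighj4 they were Ighv12-3, Ighv1s22, Ighv1-58 and Ighv15-2 (differences -16.5, 2.05, 1.23 and -0.985, adjusted p = 0.0831, 0.0588, 0.0825 and 0.0836, exact permutation). In intravascular libraries alone, Ighv3-6, Ighv3-3 and Ighv10-1 with Ighj3 and Ighv1-58 with Ighj4 were not called (differences 4.83, -1.46, 1.30 and 0.995, adjusted p = 0.133, 0.103, 0.121 and 0.103, exact permutation). In extravascular libraries alone, Ighv3-3 with Ighj3 was not called either (-2.08, adjusted p = 0.110, exact permutation).

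**Figure D2:**
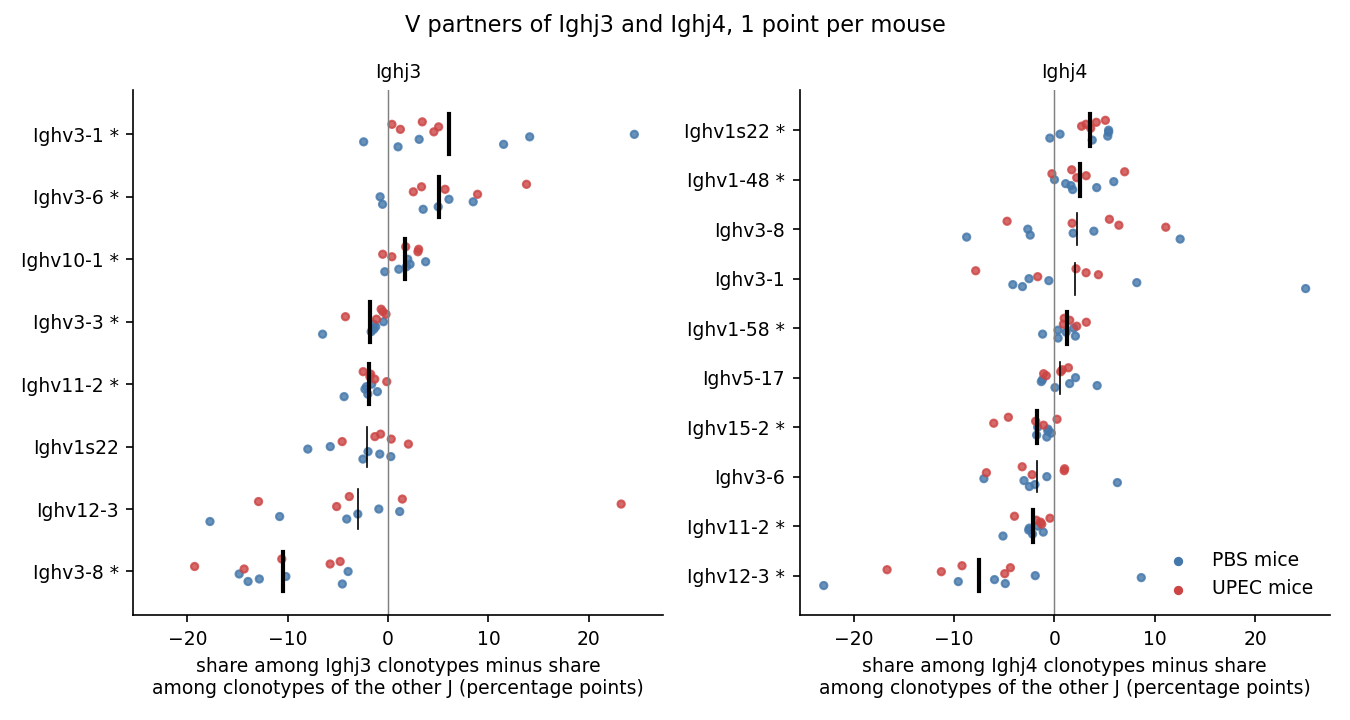
Share of each named V segment among the clonotypes of Ighj3 (left) or Ighj4 (right) minus its share among clonotypes of the other J segments, in percentage points, with 1 point per mouse and a line at the mean (thick, with an asterisk, where the adjusted p was below 0.05). Ighv3-8 lies below 0 in all 11 mice for Ighj3 and on both sides of 0 for Ighj4.

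Seen from the V segment, Ighj3 and Ighj4 shares spanned wide ranges. Of 117 Ighv11-2 clonotypes 95.7% used Ighj1 and 1.71% each used Ighj3 and Ighj4. Of 534 Ighv12-3 clonotypes 66.7% used Ighj1, 11.99% Ighj3 and 6.18% Ighj4. For Ighv12-3 the means over mice were 15.5% with Ighj3 (0 to 68.3%) and 9.21% with Ighj4 (0 to 61.5%). Ighj3 was used by 8.68% of 968 Ighv3-8 clonotypes but by 26.5% of 852 Ighv3-1 and 25.5% of 808 Ighv3-6 clonotypes. Ighj4 was used by 27.0%, 27.9% and 22.4% of the same V segments. Ighj4 was used by 42.1% of 195 Ighv1-48 clonotypes (mean over mice 41.7%) and by 27.0% of 126 Ighv3-3 clonotypes (mean over mice 44.2%, from 0 to 100%). Of 119 Ighv10-1 clonotypes 35.3% used Ighj3, 34.5% Ighj4 and 18.5% Ighj2 (means over mice 30.3%, 28.7% and 31.6%).

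**Figure D3:**
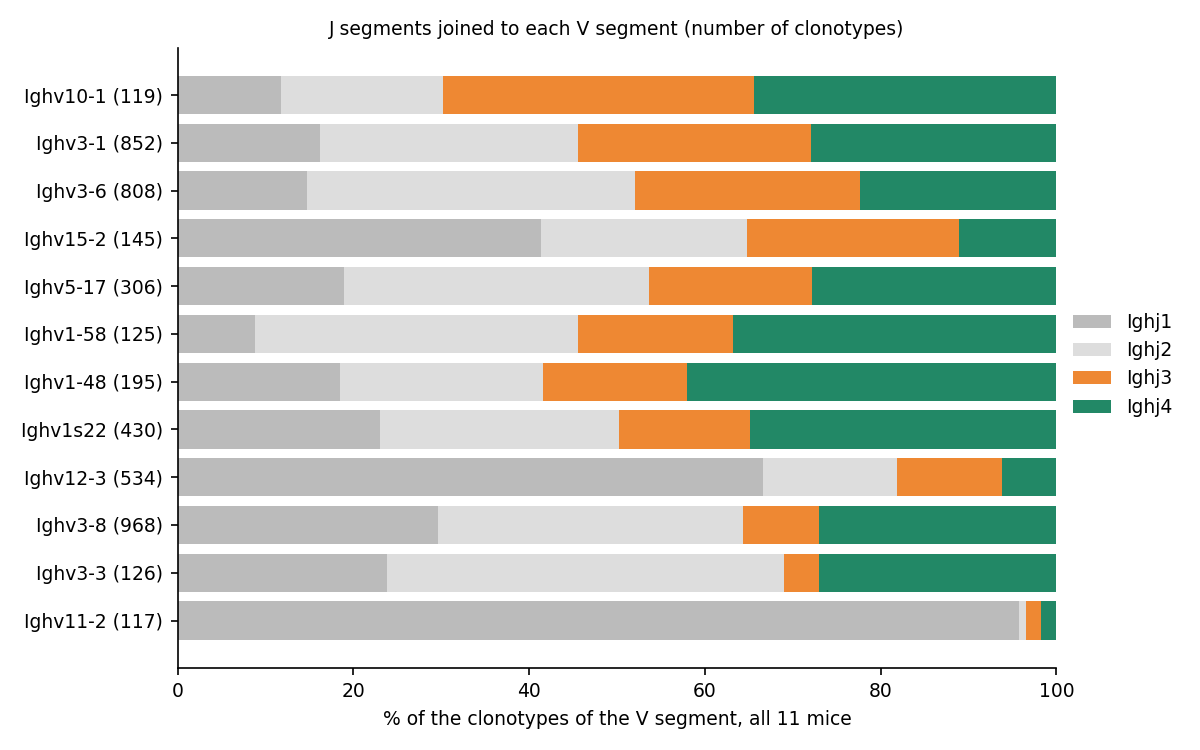
J segments joined to each named V segment, as a percentage of the clonotypes of that V segment pooled over all 11 mice, with the number of clonotypes in brackets and the V segments ordered by their Ighj3 share. Ighj3 (orange) ranges from 1.71% of Ighv11-2 to 35.3% of Ighv10-1, and Ighj4 (green) from 1.71% of Ighv11-2 to 42.1% of Ighv1-48.

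The compartments did not differ detectably in any V partner. Of the 96 pairs of V and J segments 0 (0%) passed an adjusted p of 0.05 when the difference in the extravascular clonotypes of a mouse was set against that in its intravascular clonotypes by exact permutation, and 12 had an unadjusted p below 0.05. The surplus of Ighv3-1 with Ighj3 had its larger value intravascularly. Ighv3-1 made up 24.5% of Ighj3 clonotypes there (8.60% to 51.4%, highest in PBS mouse 6), 11.6 percentage points above the other J segments. Extravascularly it made up 8.18%, which was -1.03 percentage points relative to the other J segments. The change of -12.6 percentage points was seen in 9 of 11 mice (exact permutation, p = 0.0283, adjusted over all pairs 0.375).

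The germline D segments that differed between J partners are shown, of which Ighd1-1 and Ighd4-1, but not Ighd2-4, were assigned to CDR3s below. They lie upstream of the J segments on the same strand, Ighd1-1 at chr12:113482170-113482192, Ighd2-4 at chr12:113470694-113470710 and Ighd4-1 at chr12:113430528-113430538 (GRCm38). Ighd4-1 is the D segment closest to the J cluster.
Ighd1-1: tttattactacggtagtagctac
Ighd2-4: tctactatgattacgac
Ighd4-1: ctaactgggac
Of the 68 pairs of 17 D and 4 J segments 7 (10.3%) passed the adjusted threshold, 2 of them with Ighj3 and 1 with Ighj4. Ighd1-1 was the most frequent partner of both. It made up 27.6% ± 5.26 of Ighj3 clonotypes against 35.3% ± 3.91 of the others and was lower in 10 of 11 mice (adjusted p = 0.0221, exact permutation). Ighd2-4 made up 13.6% ± 3.13 of Ighj3 clonotypes against 8.11% ± 1.83 and was higher in 10 of 11 mice (adjusted p = 0.0221, exact permutation). Ighd4-1 made up 5.36% ± 1.82 of Ighj4 clonotypes against 9.85% ± 1.65 and was lower in 11 of 11 mice (adjusted p = 0.0221, exact permutation). These 3 calls held by CDR3 groups, with differences of -9.50, 6.16 and -4.52 percentage points. All 3 were lost by sequences (adjusted p = 0.890, 0.647 and 0.398) and in extravascular libraries alone (adjusted p = 0.647, 0.0781 and 0.0586), and that of Ighd2-4 also in intravascular libraries alone (difference 4.88, adjusted p = 0.0608, all exact permutation). Ighd1-1 with Ighj4 (36.1% ± 7.55 against 32.9% ± 3.63) and Ighd4-1 with Ighj3 (8.99% against 8.67%) did not pass the test (adjusted p = 0.623 and 0.996, exact permutation).

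Ighd4-1 with Ighj3 had opposite signs in the compartments. Extravascularly it made up 12.7% of Ighj3 clonotypes and 7.44% of the others, and intravascularly 6.81% against 9.93%. The difference between compartments, 8.42 percentage points, had the same sign in 11 of 11 mice (exact permutation, p = 0.000977, the smallest that 11 mice allow, adjusted over all 68 pairs 0.0664). By that adjusted p 0 of the 68 D pairs (0%) passed, and 8 had an unadjusted p below 0.05. By CDR3 groups the difference was 7.13 percentage points, again in 11 of 11 mice.

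The CDR3 of Ighj4 clonotypes was longer than that of Ighj3 clonotypes in every mouse. The mean length was 12.7 ± 0.381 amino acids for Ighj4 (11.9 to 13.2, n = 11) and 11.3 ± 0.235 for Ighj3 (10.9 to 11.7), and the groups did not overlap. The difference was 1.37 amino acids (exact signed-rank test, p = 0.000977, adjusted over the 6 pairs of J segments 0.00146). The mean of Ighj4 lay 0.0189 amino acids from that of Ighj1 (adjusted p = 0.898), and the mean of Ighj3 0.0905 from that of Ighj2 (adjusted p = 0.496, both exact). The most frequent length was 11 amino acids for Ighj3 (251 of 1285 clonotypes, 19.5%) and 13 for Ighj4 (260 of 1656, 15.7%), whereas Ighj1 had 33.0% of its clonotypes at 12.

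The surplus of Ighj4 lay in the J-derived bases. J bases in the junction numbered 18.1 for Ighj4 and 13.6 for Ighj3, a difference of 4.58, while V bases numbered 9.12 and 9.26 and D bases 10.4 and 10.6. N additions were 5.87 ± 0.499 nucleotides for Ighj4 and 5.65 ± 0.638 for Ighj3 (difference 0.220, adjusted p = 0.496, exact signed-rank test). Between D and J they were 2.77 and 2.49 and between V and D 3.102 and 3.16. Against Ighj1, Ighj4 had 0.714 more N nucleotides (adjusted p = 0.0293, exact), which became 0.281 (exact p = 0.123) once Ighv11-2 and Ighv12-3 sequences were removed. P nucleotides were fewer in Ighj4 than in Ighj3, 0.606 against 0.924, in 10 of 11 mice (adjusted p = 0.00391, exact).

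Ighj4 ends were trimmed more than Ighj3 ends. The number of germline bases missing from the 5′ end of the segment was 4.87 ± 0.507 for Ighj4 (4.40 to 6.13) and 3.45 ± 0.339 for Ighj3 (2.84 to 3.81). It was larger for Ighj4 in 11 of 11 mice, by 1.42 bases (adjusted p = 0.00195, exact), and by 1.30 bases when CDR3 groups were counted. The whole segment was kept in 13.0% of Ighj4 and 25.9% of Ighj3 clonotypes (difference -12.9 percentage points, lower in 11 of 11 mice, adjusted p = 0.00293, exact). Of 1285 Ighj3 clonotypes 461 (35.9%) ended in the complete WFAY and 1058 (82.3%) in FAY. Of 1656 Ighj4 clonotypes 446 (26.9%) ended in the complete YYAMDY, 1034 (62.4%) in YAMDY and 1476 (89.1%) in AMDY.

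**Figure D4:**
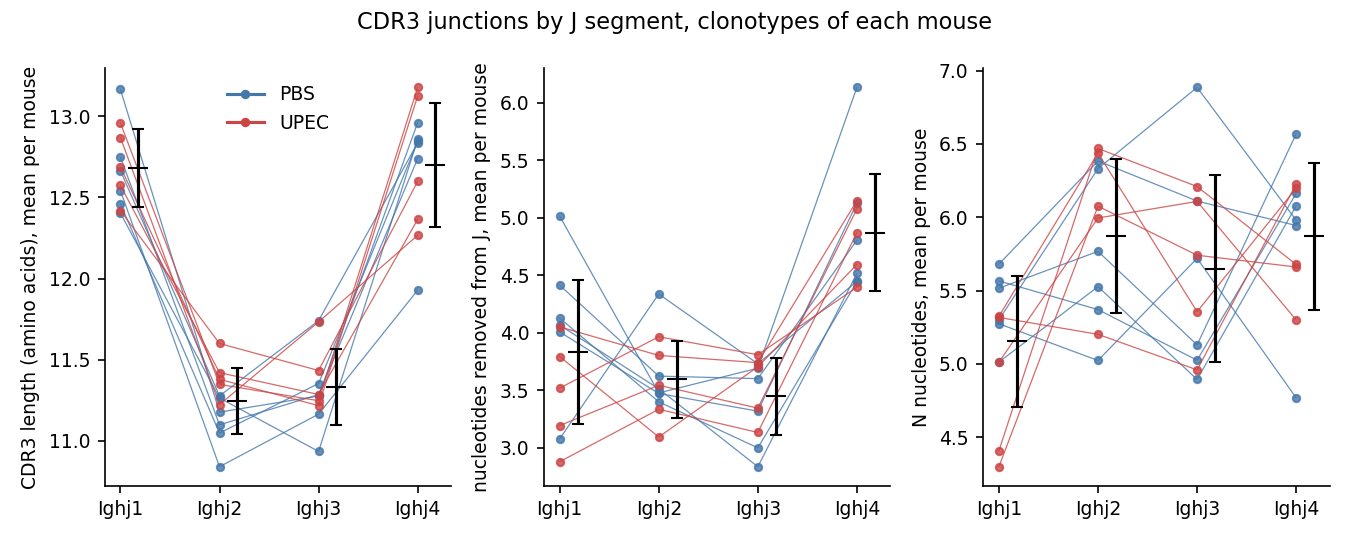
Mean CDR3 length in amino acids, nucleotides removed from the J segment and N nucleotides over the clonotypes of each J segment, with 1 line per mouse and black bars for mean ± SD over 11 mice. CDR3 length of Ighj4 lies above that of Ighj3 in every mouse, as does the number of removed nucleotides, while the N nucleotides overlap.

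Neither junction measure of Ighj3 or Ighj4 differed detectably between compartments. Over all 11 mice the extravascular minus intravascular difference in N additions was -0.349 nucleotides for Ighj3, lower in 9 of 11 mice (p = 0.1475 by exact signed-rank test), and 0.104 for Ighj4. For CDR3 length it was -0.193 and 0.0736 amino acids. The extravascular library of PBS mouse 1 stood apart for Ighj4, with a mean CDR3 of 11.2 amino acids and 3.98 N nucleotides, against 12.8 to 13.4 and 5.95 to 7.05 in the other extravascular PBS libraries. This library also held 42 clonotypes that differed by 1 nucleotide from an Ighj4 clonotype without N nucleotides (printed among the expanded clonotypes).

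Expanded clonotypes were defined as those with at least 20 distinct sequences in a library, which is not a count of cells. There were 112, of which 18 used Ighj3 and 20 used Ighj4. All 20 expanded Ighj4 clonotypes were extravascular, 13 in the 6 PBS mice and 7 in 4 of the 5 UPEC mice. Over all J segments 101 of 112 expanded clonotypes (90.2%) were extravascular, with 37 of 40 for Ighj1, 31 of 34 for Ighj2 and 13 of 18 (72.2%) for Ighj3. Of the 18 expanded Ighj3 clonotypes 9 were extravascular in 3 PBS mice, 4 extravascular in 3 UPEC mice, 1 intravascular in PBS mouse 6 and 4 intravascular in UPEC mouse 4.

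Expanded Ighj4 clonotypes held 23.5%, 4.07%, 3.099%, 20.6%, 26.7% and 19.0% of the sequences in the extravascular libraries of PBS mice 1 to 6 and 0 in the intravascular ones. The mean was 16.1% ± 10.1 (n = 6), higher in all 6 mice (p = 0.03125 by exact signed-rank test, adjusted 0.0625). In UPEC mice the extravascular values were 0, 13.6%, 4.90%, 5.79% and 3.04% against 0 intravascularly (exact p = 0.125, n = 5). Over all mice the difference was 11.3 percentage points, higher in 10 of 11 mice (exact p = 0.00195, adjusted 0.00781). Expanded Ighj1 and Ighj2 clonotypes were higher extravascularly as well, by 17.3 and 15.3 percentage points over all mice (adjusted p = 0.00781 and 0.0104, exact). The difference between UPEC and PBS mice was -10.7 percentage points extravascularly and did not pass the test (exact Mann-Whitney test, p = 0.1255).

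Intravascular PBS libraries were smaller, so that 20 sequences were 3.27% to 5.81% of an intravascular but 0.937% to 2.67% of an extravascular PBS library. In UPEC mice 20 sequences were 2.13% to 5.76% of an intravascular and 1.81% to 8.20% of an extravascular library. The intravascular library was the larger one in UPEC mouse 1 (359 against 244 sequences) and UPEC mouse 4 (938 against 743). The most frequent Ighj4 clonotype of an intravascular library had 4 to 14 sequences (median 7), or 0.982% to 3.78% of that library. With a threshold of at least 2% of a library in place of 20 sequences, the difference was 14.5 percentage points in PBS mice (exact p = 0.03125) and 10.2 over all mice (exact p = 0.00195).

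Expanded Ighj3 clonotypes held 0, 2.88%, 7.08%, 0, 0 and 17.7% in the extravascular libraries of PBS mice 1 to 6, and 37.3% in the intravascular library of PBS mouse 6 with 0 in the others. In UPEC mice they held 0, 36.6%, 4.17%, 3.36% and 0 extravascularly and 13.2% in the intravascular library of mouse 4. The compartments did not differ detectably (difference over all mice 1.93 percentage points, exact p = 0.844). Nor was the compartment difference of Ighj4 shown to exceed that of Ighj3 (9.36 percentage points, higher in 8 of 11 mice, p = 0.105 by exact signed-rank test). Without UPEC mouse 2 the latter contrast was 12.6 percentage points (exact p = 0.0273).

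**Figure D5:**
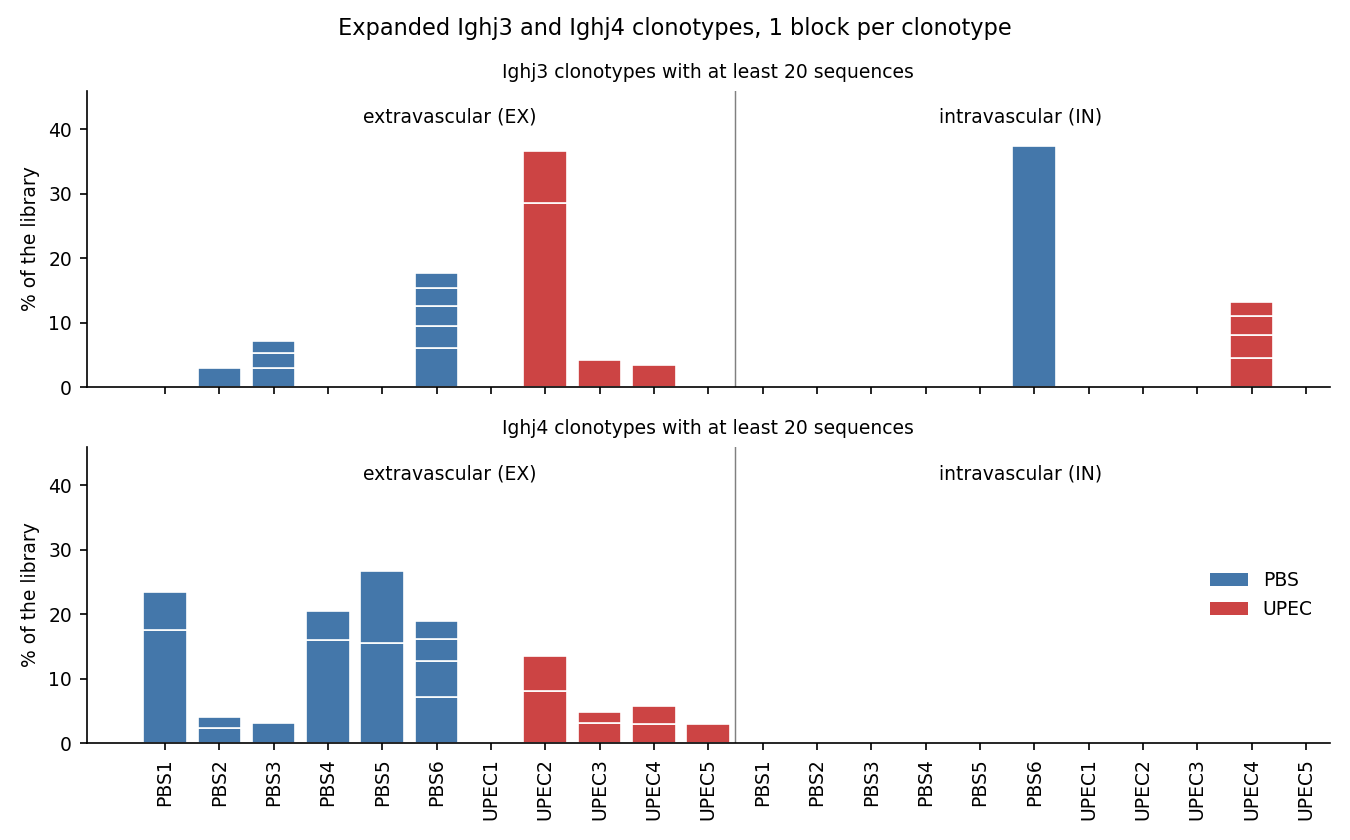
Expanded clonotypes (at least 20 sequences) of Ighj3 (upper) and Ighj4 (lower) as a percentage of the sequences of each library, with 1 block per clonotype. Ighj4 blocks fill all 6 extravascular PBS libraries and 4 of 5 extravascular UPEC libraries, and no intravascular one, whereas the tallest Ighj3 bars are an intravascular PBS library (37.3%) and an extravascular UPEC library (36.6%).

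Of the most frequent clonotypes of single libraries, 10 are shown by the nucleotides of their CDR3 with the flanking cysteine and tryptophan codons, in lower case with the J-derived bases in capitals. They were chosen after their values were seen, the larger ones of each J segment together with a very short loop (PBS mouse 3) and a clonotype found in both compartments (UPEC mouse 4).
Ighj3, PBS mouse 6 intravascular, Ighv3-1: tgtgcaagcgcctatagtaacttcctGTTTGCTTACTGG
Ighj3, UPEC mouse 2 extravascular, Ighv12-3: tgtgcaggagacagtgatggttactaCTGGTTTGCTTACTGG
Ighj3, PBS mouse 6 extravascular, Ighv3-8: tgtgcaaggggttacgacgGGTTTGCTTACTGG
Ighj3, PBS mouse 3 extravascular, Ighv1-5: tgtacggtaccccTTGCTTACTGG
Ighj4, PBS mouse 1 extravascular, Ighv3-1: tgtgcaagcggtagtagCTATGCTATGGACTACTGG
Ighj4, PBS mouse 4 extravascular, Ighv3-1: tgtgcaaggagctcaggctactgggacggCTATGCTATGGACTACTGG
Ighj4, PBS mouse 5 extravascular, Ighv12-3: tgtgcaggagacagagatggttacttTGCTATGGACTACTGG
Ighj4, PBS mouse 6 extravascular, Ighv3-1: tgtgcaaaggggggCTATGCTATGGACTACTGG
Ighj4, UPEC mouse 2 extravascular, Ighv3-8: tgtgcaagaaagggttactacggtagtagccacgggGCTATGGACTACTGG
Ighj4, UPEC mouse 4 extravascular, Ighv3-6: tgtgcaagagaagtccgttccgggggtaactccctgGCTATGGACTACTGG

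The Ighj3 clonotype of intravascular PBS mouse 6 had 228 sequences, 37.3% of the library (Wilson 95% interval 33.6% to 41.2%), with 28 further clonotypes 1 nucleotide away. It carried 7 N nucleotides and was not found in the extravascular library of the mouse. The Ighj3 clonotype of extravascular UPEC mouse 2 had 196 sequences (28.6%, 25.3% to 32.1%), 23 neighbours at 1 nucleotide and 0 N nucleotides. The 2 other Ighj3 clonotypes shown had 70 sequences (6.10%) and 50 sequences (2.92%), and the latter had a CDR3 of only 6 amino acids.

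The largest Ighj4 clonotype, in PBS mouse 1, had 374 sequences (17.5%, 15.97% to 19.2%), 0 N nucleotides and 42 neighbours. Those of PBS mice 4, 5 and 6 had 142 (15.96%), 117 (15.6%) and 82 sequences (7.14%), and that of UPEC mouse 2 had 56 (8.16%). All 4 expanded Ighv12-3 clonotypes with Ighj3 or Ighj4 were assigned Ighd2-3. The Ighj3 one of UPEC mouse 2 and the Ighj4 one of PBS mouse 5 carried 0 and 1 N nucleotides, and the 2 other Ighj3 ones, with 28 intravascular and 25 extravascular sequences in UPEC mouse 4, carried 1 and 5.

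Members of the Ighv3 family made up 18 of the 20 expanded Ighj4 clonotypes (90%), of which 9 used Ighv3-8 and 7 Ighv3-1, against 44.3% of the other Ighj4 clonotypes. For Ighj3 they made up 11 of 18 (61.1%), with 6 Ighv3-1 and 3 Ighv3-8 clonotypes, against 42.04% of the others. Over all J segments the shares were 65 of 112 (58.0%) and 42.9%. These are counts from few mice and were not tested.

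Most Ighj3 and Ighj4 clonotypes were found in 1 library. Of the expanded ones, 0 of 18 Ighj3 and 2 of 20 Ighj4 clonotypes were found in the other compartment of the same mouse. The Ighj4 clonotype of UPEC mouse 4 shown above had 22 extravascular and 8 intravascular sequences, and that of PBS mouse 5 had 117 and 1. Over all clonotypes of a mouse, 8 of 1285 with Ighj3 (0.623%) and 6 of 1656 with Ighj4 (0.362%) occurred in both compartments, 7 and 4 of them in UPEC mouse 4. The corresponding counts were 44 of 1637 (2.69%) for Ighj1 and 17 of 2101 (0.809%) for Ighj2. Between mice, 5 of 1280 distinct Ighj3 clonotypes (0.391%) and 1 of 1655 Ighj4 clonotypes (0.0604%) recurred, against 37 of 1561 (2.37%) for Ighj1 and 6 of 2092 for Ighj2.

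The shared clonotypes are shown because each had at most 1 N nucleotide where a D segment was named.
Ighj3, Ighv1-72: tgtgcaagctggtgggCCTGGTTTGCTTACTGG
Ighj3, Ighv5-6: tgtgcaagactaactgGGTTTGCTTACTGG
Ighj3, Ighv5-9-1: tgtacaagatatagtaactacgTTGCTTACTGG
Ighj3, Ighv5-17: tgtgcaaggagggGGTTTGCTTACTGG
Ighj3, Ighv3-1: tgtgcaagagGGTTTGCTTACTGG
The Ighv1-72 clonotype had 40 sequences extravascularly in PBS mouse 3 and 1 in PBS mouse 4, and the others had 2 to 5 sequences in all. Each was found in 2 mice. The Ighv5-6 clonotype contains the first part of Ighd4-1 next to the J segment, and the Ighv3-1 clonotype was assigned no D segment. The only shared Ighj4 clonotype was the Ighv12-3 clonotype of PBS mouse 5, which had 1 intravascular sequence in PBS mouse 2.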

How the data were processed

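The study amplified heavy chain RNA of sorted kidney B cells with V-segment multiplex primers and barcoded constant-region primers. Per the authors' methods, read pairs were quality-filtered with QUASR, merged, collapsed by barcode, matched to constant regions, stripped of sequences seen in 1 read and passed to IMGT/V-QUEST. What the authors deposited are its annotation tables with 119 columns, 1 row per sequence, whose identifiers hold the read counts of 9 isotypes (other values, not normalized). Primer efficiency can shift the shares of V segments, and D names of short or trimmed segments are uncertain. In 4.01% of Ighj3 and 4.84% of Ighj4 sequences several V names were given and the first was used, and 1.77% and 2.37% had no D name.

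Shares were computed per library (Python 3.11.15, pandas 2.3.3, scipy 1.17.1). Compartments were paired by mouse, as the labels give both libraries of an animal, although deviations of V shares correlated within mice only between -0.43 and 0.42. Exact two-sided tests were the signed-rank test (compartments, J pairs), the Mann-Whitney test (treatments), permutation of treatment labels over 462 regroupings and sign flips over 2048 assignments (V and D partners), with Benjamini-Hochberg adjustment. V and D segments had at least 5 clonotypes a mouse on average. Junction bases are those V-QUEST assigned, and bases removed from J are the germline bases up to the tryptophan codon that were not assigned to J. Partners named are the 5 most frequent of each J segment and at most 8 past the threshold, clonotypes the most frequent of each library with at least 20 sequences and those found in most mice. Large known changes planted in simulated data were recovered. Recovery of smaller ones was not required, and the simulated clonotypes were drawn without groups of related CDR3s. Germline sequences come from the GRCm38 genome. V segments carry IMGT names, and their positions are not given because those names differ in part from the annotation. The members, lists and tests were chosen with earlier results of these data known, and CDR3 groups, the 2% threshold, the contrast of Ighj4 with Ighj3, the test between compartments of the partners and the isotype values were added after seeing the data.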

Additional observations from a re-analysis of the deposited data

Results flagged for a closer look

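In 7 of 38 groups of libraries examined, the highest or lowest library lay apart from the rest. The rule would flag about 1 of 20 independent groups of normally distributed values. Here the same libraries entered several measures and expanded shares were often 0, so the count cannot be set against that rate. Ighj3 sequences made up 52.0% of the intravascular library of PBS mouse 6, against 16.9% to 26.3% in the other intravascular PBS libraries. They made up 46.2% of the extravascular library of UPEC mouse 2, against 11.3% to 18.4% in the others. Expanded Ighj3 clonotypes held 37.3% of the first and 36.6% of the second library, against 0 and 0 to 4.17% in the rest of their groups. They also held 13.2% of the intravascular library of UPEC mouse 4, against 0 in the other intravascular UPEC libraries. The Ighj4 clonotypes of extravascular PBS mouse 1 had a mean CDR3 of 11.2 amino acids and 3.98 N nucleotides, below the 12.8 to 13.4 and 5.95 to 7.05 of the others. The extravascular minus intravascular Ighj3 share of sequences was 15.9 percentage points higher as a signed value in UPEC (0.179) than in PBS mice (-15.7, exact permutation, p = 0.0238).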

How the results depend on the processing

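With 5 or 6 mice a group, the smallest exact p of a paired test was 0.0625 or 0.03125, so leaving out any PBS mouse ended those calls by construction. Rare partners rested on a few clonotypes a mouse. Of 287 values for whole comparisons under other settings, 254 stayed on their side of the threshold (or within 1.5 times a count), as did 386 of 418 with a mouse left out. Of these 254 and 386, 21 and 19 changed sign without passing the test in either setting. The causes of the changes below were not tested.

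For the Ighj3 share of sequences, the PBS difference was -9.86 (exact p = 0.0625) without each library's most frequent clonotype. Over all mice it passed by reads (-9.52, p = 0.0420) and without Ighv11-2 and Ighv12-3 (-9.34, p = 0.00977, both exact). It also passed with sequences merged that lay 1 nucleotide from a sequence of the same clonotype with more reads (-6.70, exact p = 0.0244). The same held without the most frequent clonotypes (-7.35, p = 0.0244) and with no replicate block, that is unpaired (-8.48, p = 0.0128, both exact). The change with treatment was lost in 4 settings, with 6.79 (merged, p = 0.165), 9.79 (without those V, p = 0.0563), 5.52 (without the most frequent clonotypes, p = 0.310) and 15.9 by the Mann-Whitney test (p = 0.0519, all exact). For the Ighj3 share of clonotypes, CDR3 groups gave -1.93 in PBS mice, -1.12 over all mice and 3.02 for UPEC against PBS extravascularly. Over all mice the difference was -3.44 with at least 3 reads (p = 0.175) and -4.91 by permutation of the mean (p = 0.0518, main exact p 0.0322). With at least 3 reads the change with treatment was 10.8 for Ighj3 (exact p = 0.0303) and -7.41 for Ighj4 (exact p = 0.0368).

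For expanded Ighj4 clonotypes, at least 50 sequences gave 13.7 in PBS mice (exact p = 0.0625) and -12.0 for UPEC against PBS (exact p = 0.0455). Without the replicate block, the UPEC difference was 5.46 (exact p = 0.0476) and Ighj4 minus Ighj3 over all mice 9.36 (exact p = 0.00914). V partners called fell from 6 to 2 for Ighj3 without Ighv11-2 and Ighv12-3, by sequences and in either compartment alone. For Ighj4 they fell from 6 to 2 without those V, by sequences and in extravascular libraries alone. The removed V segments were 1 and 2 of the 6 calls, so part of that fall is by construction. In extravascular libraries alone, Ighv12-3 with Ighj4 differed by -12.99, Ighv1-48 with Ighj4 by 1.89, Ighv3-6 with Ighj3 by 4.23 and Ighv10-1 with Ighj3 by 2.12 (adjusted p = 0.112, 0.127, 0.112 and 0.106, exact permutation), with their signs kept. Ighv1-58 (1.58) and Ighv15-2 (-0.731) with Ighj4 were not called there either (unadjusted p = 0.0508 and 0.203, exact permutation). D partners called fell to 0 for both by sequences and in extravascular libraries alone, while extravascularly the differences were -5.54 for Ighd4-1 with Ighj4 (adjusted p = 0.0586), 5.96 for Ighd2-4 (0.0781) and -5.19 for Ighd1-1 with Ighj3 (0.647, exact permutation). By sequences they were -4.16, 4.805 and -5.78 (adjusted p = 0.398, 0.647 and 0.890, exact permutation). D partners called were 3 for Ighj3 in intravascular libraries alone and by CDR3 groups, and were 2 for Ighj4 by CDR3 groups. Signs turned for Ighv3-1 with Ighj3 in extravascular libraries alone (-1.03, adjusted p = 0.813), for Ighd4-1 with Ighj3 in intravascular libraries alone (-3.12, adjusted p = 0.0260, exact permutation) and for nucleotides removed from Ighj3 minus Ighj1 by CDR3 groups (0.300 against -0.385).

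With each mouse left out, the Ighj3 sequence difference ranged from -17.3 to -13.6 in PBS mice, from -12.3 (without UPEC mouse 2, exact p = 0.00195) to -6.71 over all mice, from 5.43 to 15.0 (without PBS mouse 6, exact p = 0.00794) for UPEC against PBS extravascularly, and from 8.54 to 18.8 for the change. By clonotype the ranges were -9.40 to -6.90, -6.64 to -3.87 (above the threshold without PBS mouse 1 or 4, exact p = 0.0645), 5.20 to 9.25 (without PBS mouse 6, exact p = 0.00794) and 4.17 to 9.21 (without UPEC mouse 3, exact p = 0.0190). The Ighj4 clonotype change ranged from -7.63 (without PBS mouse 3, exact p = 0.0238) to -3.65. Expanded Ighj4 ranged from 14.0 to 18.8 in PBS mice and from -13.3 to -8.58 for the change (below the threshold without PBS mouse 2 or 3, exact p = 0.0317), and Ighj4 minus Ighj3 from 6.43 to 12.6.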

Other observations

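The identifiers name Igha, the gene of the IgA constant region, as the first of the isotypes whose reads they count. Among Ighj4 sequences, 55 of 683 (8.05%) in extravascular UPEC libraries had at least 1 Igha read, against 1 of 1833 in extravascular PBS, 1 of 677 in intravascular PBS and 11 of 565 in intravascular UPEC libraries. They were seen in 4 of 5 extravascular UPEC libraries, with 2.703%, 0.714%, 2.80%, 0 and 25.4% of the Ighj4 sequences of UPEC mice 1 to 5, and 49 of the 55 came from mouse 5. The mean of 6.32% against 0.0561% in PBS mice had an exact Mann-Whitney p of 0.0281, and 0.247 adjusted over the 12 comparisons made. Intravascularly the means were 1.61% in UPEC and 0.146% in PBS mice (exact Mann-Whitney p = 0.0411, adjusted 0.247). The compartments of UPEC mice did not differ detectably (higher extravascularly in 3 and lower in 2 mice, exact signed-rank p = 0.625). The most frequent Ighj4 clonotype of UPEC mouse 5, with Ighv1-61, had Igha reads in 26 of its 26 sequences (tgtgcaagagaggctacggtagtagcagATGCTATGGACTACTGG, J-derived bases in capitals). Over all J segments the shares were 148 of 3630 (4.08%) in extravascular UPEC and 129 of 8056 (1.60%) in extravascular PBS libraries, and for Ighj2 84 of 1094 (7.68%) and 125 of 2797 (4.47%). No test set Ighj4 against the other J segments. Among Ighj3 sequences, 7 of 722 extravascular UPEC and 3 of 703 extravascular PBS sequences had an Igha read. These values were looked at after the others and chosen for their size.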
